A study of Mus musculus with 8 samples.

Results

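Fatty acid oxidation and the targets of the peroxisome proliferator-activated receptors (PPARs) were followed through 30 named genes, chosen by symbol from a table of 54427 genes measured by RNA sequencing of mouse primary pancreatic acinar cells. All 30 were listed in the table, and 25 of them had a mean of at least 1 CPM and entered the tests. The cells were freshly isolated with collagenase from wild-type mice, with age, sex and strain not given in the labels, and were kept in HEPES medium with 2% serum. Injury was induced with 1 µM cholecystokinin octapeptide (CCK), a secretagogue of acinar cells, for 6 h. The 4 libraries titled AP and the 4 titled AP_OCA differ in their titles by OCA, stated at 2.5 µM. The treatment text is the same for all 8 libraries, so that the AP cells went without OCA rests on the titles and the series title. The labels do not spell OCA out. Obeticholic acid, a bile acid analogue that activates the nuclear receptor FXR, goes by this abbreviation. No library without CCK was analysed here, so every comparison is between CCK-treated cells. The labels do not say whether replicates came from separate animals, so p-values measure the spread between these samples, which may be technical.

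Fatty acids enter mitochondria as acylcarnitines and are then shortened in a repeated cycle of dehydrogenation, hydration, a second dehydrogenation and thiolysis, with the electrons passed on through the electron transfer flavoprotein. Peroxisomes run a related cycle on very long and branched chains. In liver, heart and muscle, fasting raises many of these genes through PPAR alpha, which binds DNA with a retinoid X receptor at direct repeats of AGGTCA spaced by a single base. FXR agonists are known to raise Pdk4 in hepatocytes.

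Values are written as CPM, a linear scale on which each library sums to 1000000, after a quantile normalisation that the authors' deposited values carry. AP_OCA replicate 2 stood apart from the other 7 libraries. Across 11311 genes, its correlations with them on the log2 scale were 0.561 to 0.635, against 0.873 to 0.981 for the 21 pairs among the other 7. It had 21010 genes above 0, against 15394 to 16640. It also had 65 distinct values above 0 and up to 1 CPM, against 9 to 14. The part of sequencing depth in these counts was not tested. Acinar markers made up the bulk of the named marker signal in every library, with the 9 summing to 330817 CPM in AP_OCA replicate 2 and to between 336598 and 360173 CPM elsewhere. Quantile normalisation holds the top ranks nearly equal, with Ctrb1 at 116521 CPM there and 116519 to 116526 elsewhere, so this sum does not measure acinar content. In AP_OCA replicate 2, 3 of the 9 were more than 2-fold under every other library. They were Amy2a5 at 353 CPM against 1770 to 2954, Bhlha15 at 5.05 against 63.1 to 120 and Ptf1a at 1.12 against 17.4 to 34.5. In AP_OCA replicate 2 the 9 lymphocyte markers summed to 12568 CPM against 20.8 to 70.7 in the other 7, the 6 macrophage markers to 760 against 44.9 to 107, and the 8 adipocyte markers to 573 against 12.5 to 94.1. The 6 islet markers summed to 8.82 CPM there, against 486 to 2054 elsewhere. For this reason the counts are given for 7 libraries, with AP_OCA replicate 2 apart, and for all 8. Fold changes of single genes are those of the 7 libraries unless all 8 are named, and for several genes the fit of all 8 gave a much larger or smaller value. These are bulk samples, in which fewer cells of a type and less RNA per cell cannot be told apart.

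With AP_OCA replicate 2 set apart, Eci2, an enoyl-CoA isomerase that prepares unsaturated fatty acids for oxidation, was the 1 gene of the 25 that rose, and none fell. The other 24 did not pass the test. Over all 10894 genes tested in these 7 libraries, 2.44% passed, 0.854% as higher and 1.59% as lower. The log2 fold change was above 0 for 16 of the 25 genes, against 50% of all genes, and its median over the 25 was 0.24, against -8.96e-05 over all genes tested. At an unadjusted p under 0.05 there were 6 genes, or 24% of the 25, against 25.7% of all genes. They were 5 higher and 1 lower, where 11.8% and 13.9% of all genes were. The 4 AP and 3 AP_OCA libraries did not overlap for 5 genes, or 20% of the 25, against 23.2% of all genes: Echs1, Eci2, Etfa and Plin2 were higher in AP_OCA and Angptl4 was lower, directions that 11.1% and 12.1% of all genes took. Pooled over both directions, these shares were close to those over the whole table. By direction there were 5 higher against 1 lower at the unadjusted p and 4 above against 1 below without overlap. These counts are small, and their split by direction was not tested. Over all genes the lower direction was slightly the more common. In the fit of all 8 libraries 0 of the 25 genes passed by limma, as did 0% of the 11311 genes tested, for which the smallest adjusted p was 0.199. At an unadjusted p under 0.05 there were 3 of the 25 genes, or 12%, against 16.2% of all genes. They were 2 higher and 1 lower, where 7.31% and 8.87% of all genes were. The groups of 4 did not overlap for 2 genes, Eci2 and Plin2, both with AP_OCA above, or 8% of the 25, against 15.3% of all genes, of which 6.75% were above and 8.57% below. The log2 fold change was above 0 for 14 of the 25, against 49.1% of all genes. The median log2 fold change of the 25 was 0.07 with all 8 libraries, against -0.01 over all genes tested. Removing each library's trend with transcript length and GC content lowered the median in the 7 libraries from 0.24 to 0.13, with 13 of the 25 above 0. With all 8 libraries the same removal turned the median from 0.07 to -0.078, with 12 of the 25 above 0.

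**Figure D1:**
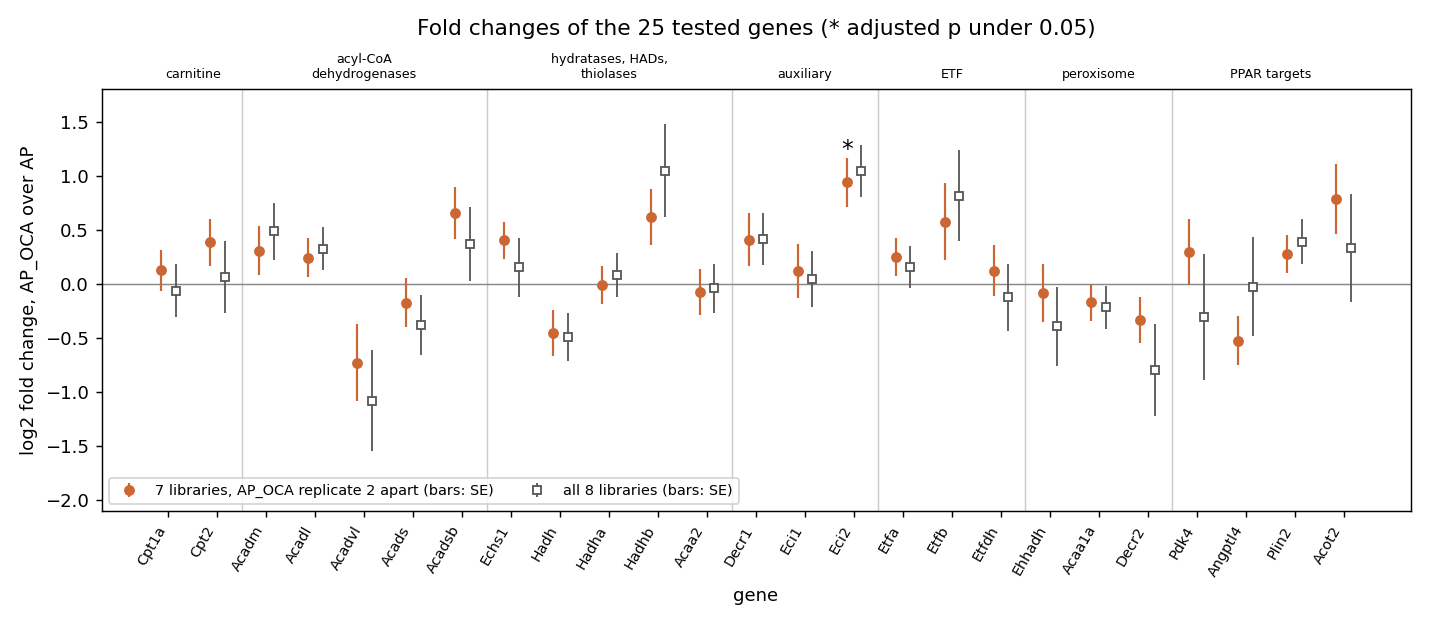
Log2 fold changes of AP_OCA over AP on the log2(CPM + 1) scale for the 25 tested genes in order of role, from the 7 libraries (filled circles) and from all 8 (open squares), with bars of 1 standard error. HADs are 3-hydroxyacyl-CoA dehydrogenases and ETF is the electron transfer flavoprotein; Eci2 alone carries the asterisk of an adjusted p under 0.05, in the 7 libraries.

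Per kilobase of the longest annotated protein-coding transcript, the highest mean level over the 7 libraries was that of Acaa1a, the peroxisomal thiolase, at 25.1 ± 2.92 CPM per kb (SD, n = 7). Echs1 followed at 19.7 ± 3.43. Plin2 at 14.0 ± 2.20 and Etfa at 13.9 ± 1.65 came next and lay within each other's spread. At the lower end of the tested genes stood Decr1 at 1.77 ± 0.46 and Ehhadh at 1.47 ± 0.45 CPM per kb, which also overlapped in their spread. Among the 4 AP libraries, the coefficient of variation of the 25 genes on the CPM scale ran from 4.96% for Plin2 to 52.7% for Etfb, with a median of 23.6%, against a median of 21.2% over all genes tested.

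**Figure D2:**
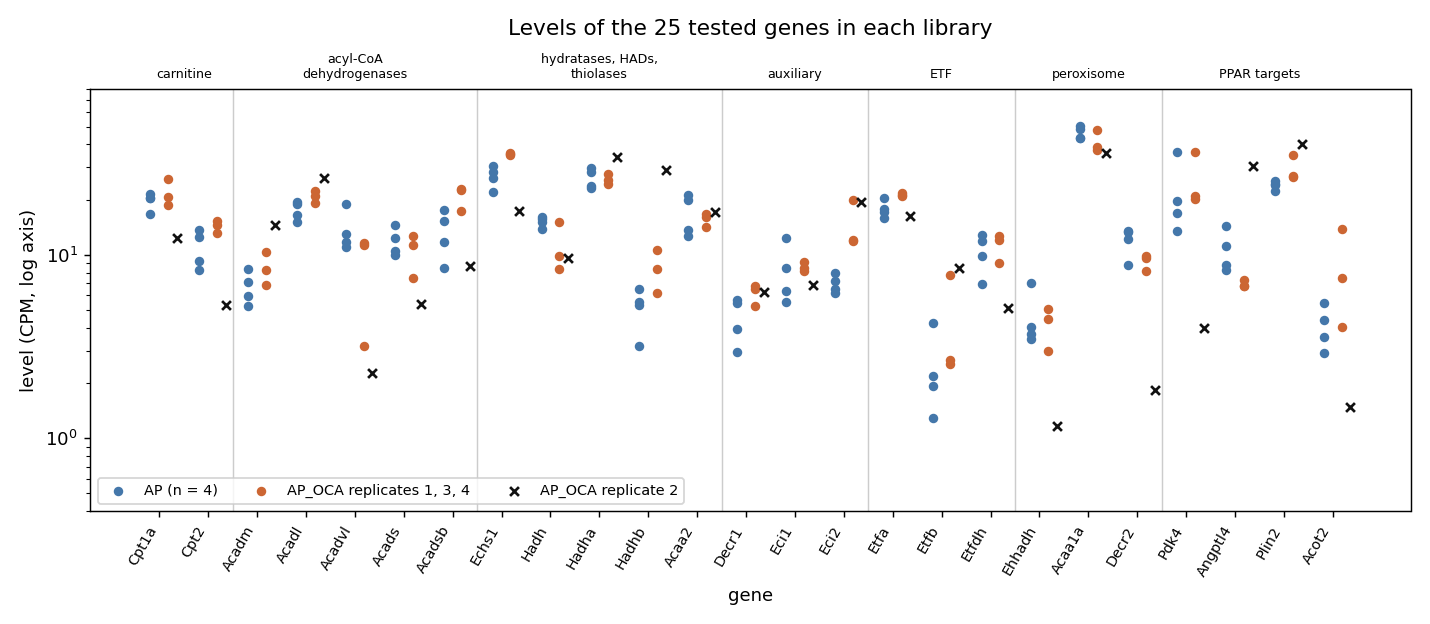
Level of each of the 25 tested genes in every library, in CPM on a log axis, with AP libraries in blue, AP_OCA replicates 1, 3 and 4 in orange and AP_OCA replicate 2 as a cross. HADs are 3-hydroxyacyl-CoA dehydrogenases and ETF is the electron transfer flavoprotein; the groups overlap for most genes, and the cross often lies outside both.

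Neither gene of the carnitine shuttle passed the test. Cpt1a, the outer-membrane carnitine palmitoyltransferase that limits entry of long chains into mitochondria, stood at 20.4, 20.4, 16.8 and 21.4 CPM in AP replicates 1 to 4 and at 20.6, 25.8 and 18.7 CPM in AP_OCA replicates 1, 3 and 4, with 12.4 CPM in AP_OCA replicate 2. The groups overlapped, and AP_OCA replicate 2 was below every other library. Its log2 fold change in the 7 libraries was 0.12 ± 0.19 (SE, limma adjusted p = 0.706), and -0.062 with all 8. For Cpt2, the inner-membrane partner that returns the chain to coenzyme A, the AP libraries read 13.6, 8.22, 12.5 and 9.31 CPM and the 3 AP_OCA libraries 13.2, 15.3 and 14.5, with 5.32 in AP_OCA replicate 2. AP replicate 1 lay among the AP_OCA values and the other AP libraries lay below them, for a log2 fold change of 0.38 ± 0.21 (SE, limma adjusted p = 0.274).

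Of the 5 acyl-CoA dehydrogenases, which open the cycle on chains of different length, none passed the test. Acadl, the long-chain enzyme of mice, read 18.9, 16.5, 15.1 and 19.3 CPM in AP and 22.3, 19.1 and 21.0 in AP_OCA replicates 1, 3 and 4, with 26.4 in AP_OCA replicate 2. The groups overlapped by a narrow margin, at AP replicate 4 and AP_OCA replicate 3. Its log2 fold change was 0.24 ± 0.18 (SE, limma adjusted p = 0.410), and -0.10 once the length and GC trend was removed. Acadsb, which acts on short branched chains from isoleucine, read 15.2, 17.5, 8.49 and 11.7 CPM in AP and 17.4, 22.6 and 22.8 in the 3 AP_OCA libraries, with 8.72 in AP_OCA replicate 2. AP replicate 2 and AP_OCA replicate 1 nearly coincided, and the log2 fold change was 0.66 ± 0.24 (SE, limma adjusted p = 0.113). The other 3 enzymes, Acadm, Acadvl and Acads, which take medium, very long and short chains, had log2 fold changes of 0.31, -0.73 and -0.17. For Acadvl the value was -1.08 with all 8 libraries and -0.20, in the 7, without AP_OCA replicate 4, which stood at 3.19 CPM, while AP_OCA replicates 1 and 3 at 11.3 and 11.7 CPM lay within the AP range of 11.1 to 19.0.

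The hydratase, the hydroxyacyl-CoA dehydrogenases and the thiolases that finish the cycle gave 0 calls among 5 genes. Echs1, the short-chain enoyl-CoA hydratase, read 26.2, 28.4, 30.7 and 22.1 CPM in AP and 36.1, 35.2 and 35.5 in AP_OCA replicates 1, 3 and 4, with 17.4 in AP_OCA replicate 2. The 3 AP_OCA values were nearly the same and all lay above AP, while AP_OCA replicate 2 was the lowest of the 8. The mean was 26.9 ± 3.63 CPM in AP (SD, n = 4) and 35.6 ± 0.431 CPM in AP_OCA (SD, n = 3), a log2 fold change of 0.40 ± 0.17 (SE, limma adjusted p = 0.166) that became 0.15 with all 8 libraries. The upstream sequence of Echs1 is shown because it holds a match to the PPAR repeat. It covers chr7:140116477-140116671 on the minus strand (GRCm38.p6, RefSeq), written 5′ to 3′ along the gene with the match in capitals.
Echs1: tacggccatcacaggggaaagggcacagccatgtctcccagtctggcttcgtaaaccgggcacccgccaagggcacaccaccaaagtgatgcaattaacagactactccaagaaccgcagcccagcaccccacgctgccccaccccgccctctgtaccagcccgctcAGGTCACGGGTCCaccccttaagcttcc
The match ends 70 bases before the annotated start.

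Hadha and Hadhb encode the alpha and beta subunits of the mitochondrial trifunctional protein, which carries out the last steps of the cycle on long chains, and lie head to head with 85 bases between their annotated transcripts. The shared gap is shown because a single stretch of DNA precedes both genes, at chr5:30155163-30155247 on the plus strand, the strand of Hadhb (GRCm38.p6, RefSeq). It holds no match to the PPAR repeat and is printed without capitals.
Hadha-Hadhb gap: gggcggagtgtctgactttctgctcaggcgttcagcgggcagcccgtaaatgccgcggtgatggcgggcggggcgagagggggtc
Hadha read 23.2, 29.9, 28.2 and 23.6 CPM in AP and 27.7, 25.6 and 24.5 in the 3 AP_OCA libraries, with 34.0 in AP_OCA replicate 2. The 3 AP_OCA values lay inside the AP range, and the log2 fold change was -0.01 ± 0.18 (SE, limma adjusted p = 0.979), against 0.086 with all 8 libraries, with its sign turning in several alternatives. Hadhb read 3.18, 6.47, 5.33 and 5.52 CPM in AP and 10.6, 8.40 and 6.18 in AP_OCA, with 29.0 in AP_OCA replicate 2, and is given in full here, after its values were seen, because it is the partner of Hadha. AP_OCA replicate 4 lay inside the AP range, and the log2 fold change was 0.62 ± 0.26 (SE, limma adjusted p = 0.152) in the 7 libraries and 1.05 with all 8 (limma adjusted p = 0.288). In AP_OCA replicate 2, Hadhb was 2.74 times the highest of the other 7 libraries. Hadh, the dehydrogenase for shorter chains, had a log2 fold change of -0.45 ± 0.22 (SE, limma adjusted p = 0.203), and Acaa2, the mitochondrial thiolase, one of -0.07 ± 0.22.

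Among the 3 auxiliary enzymes for unsaturated chains, Eci2 passed the test and Eci1 and Decr1 did not. Eci2 read 6.21, 7.18, 7.95 and 6.49 CPM in AP and 11.9, 12.0 and 19.9 in AP_OCA replicates 1, 3 and 4, with 19.4 in AP_OCA replicate 2. Every AP_OCA library was above every AP library, AP_OCA replicates 2 and 4 the most. The mean was 6.96 ± 0.774 CPM in AP (SD, n = 4) and 14.6 ± 4.60 CPM in AP_OCA (SD, n = 3), a log2 fold change of 0.94 ± 0.23 (SE, limma adjusted p = 0.0486). With all 8 libraries it was 1.04 (limma adjusted p = 0.260). The adjusted p was just under the threshold: it lay between 0.0706 and 0.124 without any 1 of the 4 AP libraries, AP_OCA replicate 3 or AP_OCA replicate 4, and was 0.0270 without AP_OCA replicate 1. The log2 fold change fell to 0.71 without AP_OCA replicate 4, and the call was kept in 5 of the 10 other settings. Eci3 is a near copy, 87.1% identical to Eci2 over 1112 aligned transcript bases with a longest identical run of 121, so the counting could have split reads between them, and it read 1.01 to 4.06 CPM in the 7 libraries. In the same 7 libraries the 5 duct markers summed to 136 to 215 CPM in AP and 263 to 312 in AP_OCA, led by Krt19 and Spp1, and their part in the result was not tested. The upstream sequence of Eci2 is shown because it is the gene that passed. It covers chr13:34994282-34994394 on the minus strand (GRCm38.p6, RefSeq) and holds no match to the PPAR repeat. The RefSeq start used is at 34994144, and bases inside annotated exons are left out. GENCODE places the 5′ end of the gene farther upstream, at 35027096.
Eci2: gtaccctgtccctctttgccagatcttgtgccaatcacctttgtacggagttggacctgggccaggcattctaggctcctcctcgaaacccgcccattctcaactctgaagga
Eci1, the mitochondrial isomerase, read 5.50, 8.51, 12.4 and 6.35 CPM in AP and 8.12, 9.19 and 8.50 in AP_OCA replicates 1, 3 and 4, with 6.85 in AP_OCA replicate 2. All 4 AP_OCA values lay inside the wide AP range, and the log2 fold change was 0.12 ± 0.25 (SE, limma adjusted p = 0.800). Decr1, the mitochondrial dienoyl-CoA reductase, had a log2 fold change of 0.41 ± 0.25 with overlapping groups.

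None of the 3 genes of the electron transfer flavoprotein system passed. Etfa, the alpha subunit of the flavoprotein, read 17.2, 20.4, 17.9 and 16.0 CPM in AP and 20.9, 21.2 and 21.9 in AP_OCA replicates 1, 3 and 4, with 16.2 in AP_OCA replicate 2. The 3 AP_OCA values lay just above AP replicate 2, and AP_OCA replicate 2 lay at the lower end of AP. Its log2 fold change was 0.25 ± 0.18 (SE, limma adjusted p = 0.387), and -0.24 once the length and GC trend was removed. Etfdh, the oxidoreductase that passes the electrons to ubiquinone, read 11.9, 12.9, 6.97 and 9.90 CPM in AP and 12.7, 12.1 and 8.98 in the 3 AP_OCA libraries, with 5.14 in AP_OCA replicate 2. AP covered all 3 values, for a log2 fold change of 0.12 ± 0.23 in the 7 libraries and -0.12 with all 8. Etfb, the beta subunit, was low and uneven, with 1.28 to 4.23 CPM in AP and a log2 fold change of 0.57 ± 0.36. The upstream sequence of Etfa, at chr9:55512244-55512493 on the minus strand (GRCm38.p6, RefSeq), is shown because it holds a match to the PPAR repeat, in capitals and on the opposite strand to the gene.
Etfa: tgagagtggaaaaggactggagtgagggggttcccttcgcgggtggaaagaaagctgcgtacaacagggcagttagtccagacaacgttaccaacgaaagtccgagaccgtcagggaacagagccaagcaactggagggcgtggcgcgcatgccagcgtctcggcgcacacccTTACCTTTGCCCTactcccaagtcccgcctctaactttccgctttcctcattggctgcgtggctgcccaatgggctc
The match ends 64 bases before the annotated start.

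The 3 genes grouped here as peroxisomal enzymes had negative log2 fold changes in both fits, and none passed. Ehhadh turned to 0.10 in the 7 libraries without AP replicate 2 and to 0.090 without AP_OCA replicate 4. The groups follow role, with Eci2 among the auxiliary enzymes, so these 3 are no full list of peroxisomal enzymes. Acaa1a read 43.2, 48.8, 50.7 and 43.2 CPM in AP and 48.1, 38.6 and 37.3 in AP_OCA replicates 1, 3 and 4, with 35.9 in AP_OCA replicate 2. AP_OCA replicate 1 lay inside the AP range and the other AP_OCA libraries lay below it, for a log2 fold change of -0.17 ± 0.17 (SE, limma adjusted p = 0.553). Its copy Acaa1b, 96% identical over 1450 aligned transcript bases, was at or near 0 in the 7 libraries. Decr2, the peroxisomal dienoyl-CoA reductase, read 13.3, 12.2, 13.5 and 8.77 CPM in AP and 9.61, 9.81 and 8.12 in the 3 AP_OCA libraries, with 1.82 in AP_OCA replicate 2. AP replicate 4 was among the AP_OCA values, and AP_OCA replicate 2 was 4.46-fold under the lowest of the other 7. In the 7 libraries its log2 fold change was -0.33 ± 0.21 (SE, limma adjusted p = 0.328), and it was -0.80 with all 8. Ehhadh, the bifunctional enzyme, had a log2 fold change of -0.09 ± 0.27 and was 2.54-fold lower in AP_OCA replicate 2 than in the lowest other library.

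Of the 8 genes known as PPAR targets in signalling, storage and microsomal oxidation, 4 were tested and none passed. Plin2, the coat protein of lipid droplets, read 22.4, 24.5, 24.1 and 25.2 CPM in AP and 26.6, 27.1 and 35.2 in AP_OCA replicates 1, 3 and 4, with 40.1 in AP_OCA replicate 2. Every AP_OCA library was above every AP library, AP_OCA replicates 1 and 3 by little. The log2 fold change was 0.28 ± 0.18 (SE, limma adjusted p = 0.327) in the 7 libraries and 0.39 with all 8. AP_OCA replicate 4, the highest of the 7 for Plin2, also had the highest adipocyte marker sum of the 7, at 94.1 CPM against 12.5 to 34.6 in the other 6. Most of it was Fabp4 at 54.2 CPM and Cfd at 31.0 CPM. Adipoq, Retn and Car3 were also highest there, at 1.29, 2.41 and 5.07 CPM. Plin1, Cidec and Lep were not, at 0, 0.0122 and 0.129 CPM. Any part of adipocytes in the Plin2 values was not tested.

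Angptl4, a secreted inhibitor of lipoprotein lipase, read 11.2, 8.22, 14.3 and 8.83 CPM in AP and 6.80, 6.75 and 7.25 in AP_OCA replicates 1, 3 and 4, with 30.5 in AP_OCA replicate 2. The 3 AP_OCA values were close together below AP, and AP_OCA replicate 2 was 2.13 times the highest of the other 7. The means were 10.6 ± 2.77 CPM in AP (SD, n = 4) and 6.93 ± 0.278 CPM in AP_OCA (SD, n = 3), a log2 fold change of -0.52 ± 0.22 (SE, limma adjusted p = 0.161) that became -0.03 with all 8 libraries. In the 7 libraries the summed endothelial markers were 33.5 to 49.5 CPM in AP and 17.8 to 32.4 in AP_OCA, and the stellate cell markers 165 to 223 and 99.7 to 154, also without overlap. The endothelial markers did not move as 1. The mean was lower in AP_OCA for Pecam1, Cdh5 and Kdr, and higher for Emcn (1.78 to 3.41 CPM) and Cldn5 (0.352 to 0.436 CPM). Of these only Cdh5 did not overlap between the groups. The part of endothelial and stellate cells in the Angptl4 values was not tested.

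Pdk4, the kinase that shuts off pyruvate dehydrogenase when fat is burned, read 13.6, 36.4, 19.6 and 16.8 CPM in AP and 20.9, 36.5 and 20.2 in AP_OCA replicates 1, 3 and 4, with 3.97 in AP_OCA replicate 2. Each group held 1 library well above its others, and the ranges overlapped almost wholly. Its log2 fold change was 0.29 ± 0.31 (SE, limma adjusted p = 0.570) in the 7 libraries and -0.30 with all 8. Acot2, a mitochondrial acyl-CoA thioesterase, ran from 2.93 to 5.49 CPM in AP and from 4.06 to 13.8 CPM in the 3 AP_OCA libraries, with a log2 fold change of 0.78 ± 0.32 (SE, limma adjusted p = 0.152). It shares 94.3% of 1330 aligned transcript bases with Acot1, its cytosolic neighbour, so the counting could have split reads between them.

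**Figure D3:**
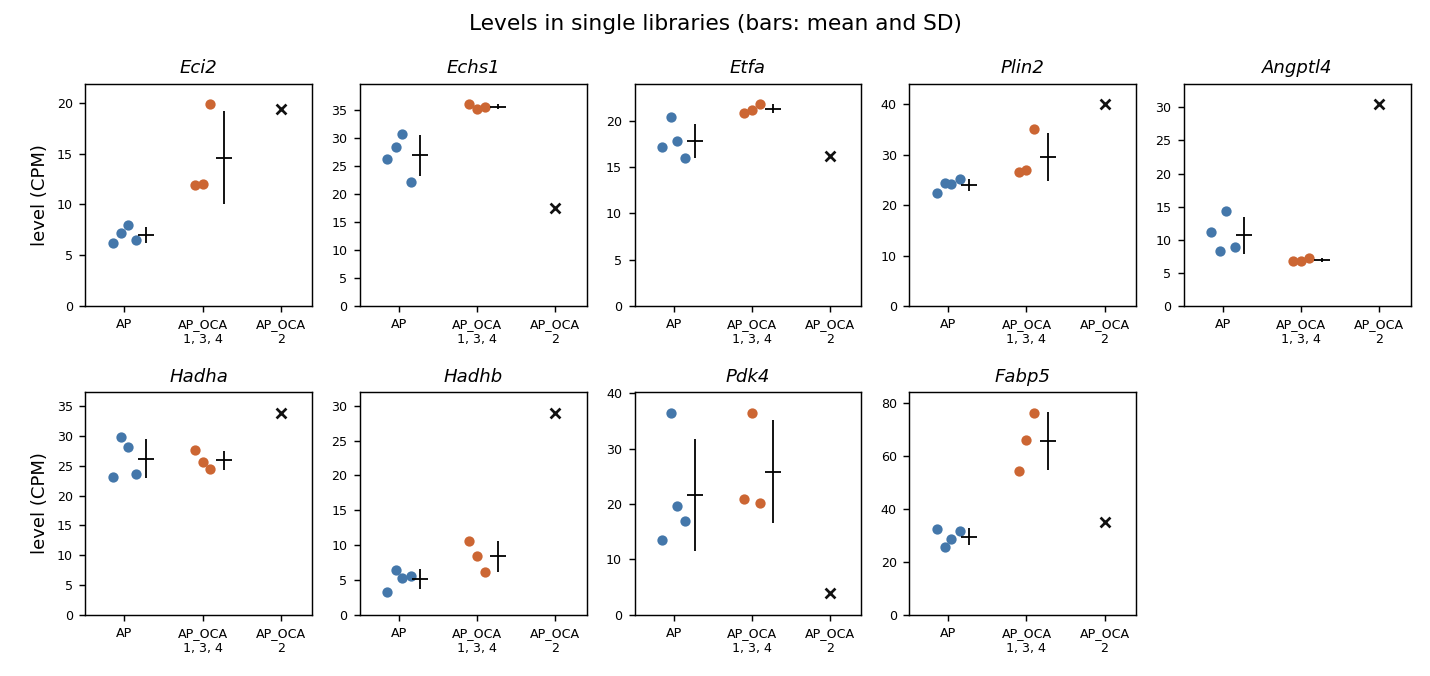
Level in CPM of 8 genes of fatty acid oxidation and PPAR signalling and of Fabp5 in every library, with bars for the mean and SD of AP (n = 4) and of AP_OCA replicates 1, 3 and 4 (n = 3). Eci2, Echs1, Etfa, Plin2, Angptl4 and Fabp5 do not overlap between these groups. AP_OCA replicate 2 lies within the AP range for Etfa, below it for Echs1 and above it for Angptl4.

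The other 4 PPAR targets were at or near 0. Cyp4a10 and Cyp4a14, omega-hydroxylases that are among the strongest PPAR alpha targets in mouse liver, were listed at 0 in all 8 libraries. Fabp1, the fatty acid binding protein of liver and intestine, was listed at 0 in 7 libraries and at 0.121 CPM in AP_OCA replicate 2. A count of 0 allows up to 3 counts, a level of 0.206 to 0.313 CPM in these 7, as read from the steps of the deposited values and for counting error only. Levels under that limit can therefore be listed as 0, although values under it were listed for some genes. In AP_OCA replicate 2 a count of 3 stands for 0.000455 CPM. The hepatocyte markers Apoa1, Apoc3 and Serpina1a were at 0 in the same 7 libraries. Acot1 ran from 0.129 to 1.70 CPM in AP and from 0.450 to 1.03 CPM in the 3 AP_OCA libraries, with 0.460 in AP_OCA replicate 2, and its mean was under the 1 CPM that the test required. Ppargc1a, a coactivator of PPARs and of mitochondrial biogenesis, read 1.69, 1.31, 1.60 and 0.0120 CPM in AP and 0.407, 0.530 and 1.01 in AP_OCA replicates 1, 3 and 4, with 0.121 in AP_OCA replicate 2. AP replicate 4 was far below the other AP libraries, and the gene was not tested.

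RefSeq promoters, which run from 250 bases before to 50 bases after the annotated start, were matched for 25 of the 30 genes, a different 25 from those tested. The PPAR repeat AGGTCANAGGTCA, searched on both strands with at most 2 mismatches, was found in 4 of them, or 16%, against 3.86% of the 32851 promoters in the table. Since the list was drawn up partly from known PPAR targets, these shares are a description. The 4 were Echs1, Etfa, Plin2 and Fabp1. The single AGGTCA, with no mismatch, occurred in 6 promoters, or 24%, against 16.3%, and in 3 of those it overlapped the repeat. The inverted repeat AGGTCANTGACCT, the arrangement that FXR is known to bind, occurred with at most 2 mismatches in the promoter of Ppargc1a alone, or 4%, against 1.14%. Of the 4 promoters with the PPAR repeat, those of Plin2 and Fabp1 are shown here because they belong to classical PPAR targets that differ in level. The Plin2 stretch is chr4:86670061-86670309 on the minus strand and the Fabp1 stretch is chr6:71199629-71199826 on the plus strand (GRCm38.p6, RefSeq), with the match in capitals.
Plin2: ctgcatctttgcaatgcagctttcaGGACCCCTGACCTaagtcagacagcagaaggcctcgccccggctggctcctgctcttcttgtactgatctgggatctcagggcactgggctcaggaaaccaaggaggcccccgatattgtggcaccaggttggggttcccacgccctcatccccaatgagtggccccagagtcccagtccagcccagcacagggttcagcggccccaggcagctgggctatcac
Fabp1: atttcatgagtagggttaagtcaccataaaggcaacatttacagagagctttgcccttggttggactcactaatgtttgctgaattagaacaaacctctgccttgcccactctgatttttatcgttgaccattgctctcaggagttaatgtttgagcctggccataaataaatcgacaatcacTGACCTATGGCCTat
The matches end 212 and 54 bases before the annotated start. Of the genes with the match, Echs1, Etfa and Plin2 were higher in AP_OCA replicates 1, 3 and 4 than in AP without passing the test. Fabp1 was listed at 0 in those libraries. AP_OCA replicate 2 was below AP for Echs1, within AP for Etfa and above AP for Plin2. Eci2, the gene that passed, holds no match. Any link between the match and the levels was not tested.

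Against the other 7 libraries, AP_OCA replicate 2 was above all of them for 7 of the 25 tested genes, below all of them for 11 and within their range for 7. Over the 11311 genes it was above the other 7 for 32.5% and below for 36.9%. Hadhb and Angptl4 stood out at the upper end, and Decr2, at 4.46-fold under the lowest other library, and Pdk4, at 3.42-fold, at the lower end. Taking the median over the 25 genes of the difference from the AP mean, on the log2(CPM + 1) scale, AP_OCA replicate 2 was at -0.36, AP_OCA replicates 1, 3 and 4 were at 0.14, 0.17 and 0.02, and the AP libraries ran from -0.14 to 0.13. AP_OCA replicates 1 and 3 were thus just above the AP libraries and AP_OCA replicate 4 was among them.

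**Figure D4:**
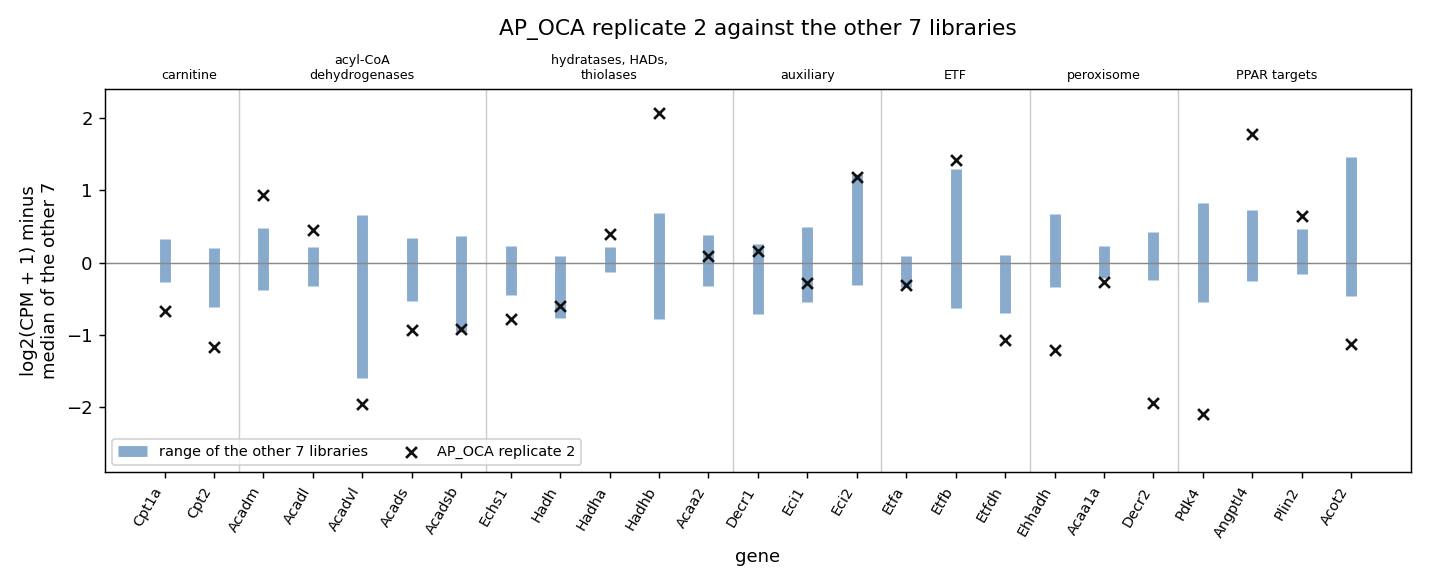
Position of AP_OCA replicate 2 (crosses) against the range of the other 7 libraries (bars) for the 25 tested genes, as log2(CPM + 1) minus the median of the other 7. HADs are 3-hydroxyacyl-CoA dehydrogenases and ETF is the electron transfer flavoprotein; 7 crosses lie above the bars, 11 below and 7 within.

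A wider list of 96 genes of the same pathways held 75 that were tested. In the 7 libraries 1 of them rose, Fabp5, none fell and 74 did not pass, against 2.44% of all genes that passed. At an unadjusted p under 0.05 there were 18 of the 75, or 24%, against 25.7% of all genes, and the groups did not overlap for 12, or 16%, against 23.2%. With all 8 libraries 0 of the 75 passed by limma, as did 0% of all genes, with 8, or 10.7%, at an unadjusted p under 0.05 against 16.2%. Pooled over both directions, these shares were at or below those over the whole table. In the 7 libraries the 18 were 13 higher and 5 lower, where 11.8% and 13.9% of all genes were. The 12 without overlap were 9 above and 3 below, where 11.1% and 12.1% of all genes were. With all 8 the 8 genes were 7 higher and 1 lower, where 7.31% and 8.87% of all genes were. Fabp5, a fatty acid binding protein known to carry ligands to PPAR delta, read 32.4, 25.4, 28.5 and 31.5 CPM in AP and 54.4, 65.9 and 76.4 in AP_OCA replicates 1, 3 and 4, with 35.2 in AP_OCA replicate 2. The 3 AP_OCA libraries lay well above AP, and AP_OCA replicate 2 just above. The log2 fold change was 1.12 ± 0.18 (SE, limma adjusted p = 0.0227) in the 7 libraries and 0.90 with all 8 (limma adjusted p = 0.260). Correction for transcript length and GC content took it to 0.55 (limma adjusted p = 0.0854). Without any 1 of the 4 AP libraries or AP_OCA replicate 3, its adjusted p lay between 0.0577 and 0.0681, and it passed in 7 of the 10 other settings. Fabp4, the fatty acid binding protein of adipocytes and endothelium, and itself among the adipocyte markers, went from 15.9 ± 7.93 CPM in AP (SD, n = 4) to 36.1 ± 15.7 CPM in AP_OCA (SD, n = 3), with a log2 fold change of 1.15 ± 0.33 (SE, limma adjusted p = 0.0685).

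The other lists gave 0 calls in the 7 libraries. Fgf21, a fasting hormone under PPAR alpha in liver, had a log2 fold change of -0.37 ± 0.25, and of -1.32 with all 8 libraries. For mitochondrial oxidation and the carnitine system, with 18 of 20 genes tested, the median log2 fold change was 0.03, and the lowest p belonged to Acacb, the carboxylase whose product malonyl-CoA inhibits Cpt1a, at -0.79 ± 0.21 (SE, limma adjusted p = 0.0587) and -1.31 with all 8 libraries, and to Hsd17b10, a dehydrogenase of branched chains, at 0.66 ± 0.21. For peroxisomal oxidation, with 15 of 20 tested, the median was 0.24, with Phyh, the phytanoyl-CoA hydroxylase, at 0.75 ± 0.22 and Crot, the carnitine octanoyltransferase, at 0.79 ± 0.24. For lipid droplets and lipolysis, with 10 of 13 tested, the median was 0.17, with G0s2, an inhibitor of the lipase Pnpla2, at 0.87 ± 0.23 (SE, limma adjusted p = 0.0550) and the droplet protein Plin4 at 0.88 ± 0.31. For the pyruvate dehydrogenase switch and uncoupling proteins, with 6 of 8 tested, the median was 0.08, with Pdk2, another pyruvate dehydrogenase kinase, at -0.39 ± 0.22 and Pdha1, the alpha subunit of that enzyme, at 0.29 ± 0.20. With all 8 libraries these were -1.01 and -0.013.

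The receptors were low or did not pass. Ppara, the receptor behind the fasting response, read 0.770, 0.138, 0.818 and 0.305 CPM in AP and 0.818, 0.113 and 0.129 in AP_OCA replicates 1, 3 and 4, and 0.000350 in AP_OCA replicate 2, under the 0.000455 CPM of a count of 3 there, and every value was under the mean that the test required. Among the 8 of 12 receptors and coregulators that were tested in the 7 libraries, the median log2 fold change was -0.21. Ppard was at -0.32 ± 0.23, Pparg at -0.35 ± 0.26 and the estrogen-related receptor Esrra at -0.54 ± 0.24. Nr1h4, which encodes FXR, was at 0.30 ± 0.36, with a mean of 0.919 ± 0.769 CPM in AP (SD, n = 4) and 1.36 ± 0.873 CPM in AP_OCA (SD, n = 3). With all 8 libraries its mean was too low for the test. Nr0b2, the FXR target also called SHP, was at -0.21 ± 0.27 (SE, limma adjusted p = 0.658).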

How the data were processed

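RNA sequencing libraries of 8 samples (4 AP, 4 AP_OCA) were grouped and numbered by their titles. The authors' deposited table holds log2 values of a count-like number plus 0.01, read so from the values. Their maximum is identical and their linear sum nearly identical between columns, as after quantile normalisation. Per the labels, total RNA went into libraries prepared by a SMARTER kit, and the build was mm10 per the submitters' processing notes. The aligner and counter are not given in the sources used here, nor is whether counting used strand. Total reads are unknown, so a CPM value ranks a gene within a distribution common to all libraries and is no share of reads.

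From the log2 values, linear numbers were computed, less the 0.01, and divided so that every library sums to 1000000. Tests took genes whose mean reached 1 CPM and were run on log2(CPM + 1) with limma 3.58.1 in R 4.3.3 (trend, robust), with Benjamini-Hochberg adjustment over all genes tested and a threshold of 0.05. The pseudocount of 1 understates changes of low genes. The code was checked on simulated data. Count-like steps gave the level of a count of 3, which covers counting error only. The 30 genes, the lists, the markers and the setting apart of AP_OCA replicate 2 were chosen with earlier results of these data known. Values per library are given for genes that passed, genes whose groups did not overlap, the 2 with the highest mean in each role group and the only coactivator. Of each other list, the genes that passed are named, or otherwise the 2 with the lowest p, and the receptors Ppara, Pparg, Ppard, Nr1h4 and Nr0b2 regardless. A gene that this rule takes from another list is not reported here. Other pseudocounts, filters, weights, a replicate block, a length and GC correction and leaving out each library were tried. GENCODE M21 gave transcripts, with 53749 symbols matched, and RefSeq GRCm38.p6 the promoters. Upstream sequences are shown without bases inside annotated exons, so some stop short of the RefSeq start.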

Additional observations from a re-analysis of the deposited data

Results flagged for a closer look

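Within groups of 4 libraries, 55 groups were examined for a library far from the other 3, by the gap to its nearest neighbour over the whole range, and 7 were flagged. Chance flags about 1 in 20 groups. In 6 of the 7 the library was AP_OCA replicate 2. It was low for Cpt2 at 5.32 CPM against 13.2 to 15.3 in the other AP_OCA libraries, for Echs1 at 17.4 against 35.2 to 36.1, for Etfa at 16.2 against 20.9 to 21.9 and for Decr2 at 1.82 against 8.12 to 9.81. It was high for Angptl4 at 30.5 CPM against 6.75 to 7.25. Fabp1 was flagged at 0.121 CPM against 0 in the other 3, as any value above 0 would be. In AP_OCA replicate 2 itself a count of 3 stands for 0.000455 CPM, so the gene was detected there. A count of 3 stands for 0.218 to 0.312 CPM in the other 3, so 0.121 CPM cannot be called higher than in those. The last was AP replicate 4, with Ppargc1a at 0.0120 CPM against 1.31 to 1.69 in the other AP libraries.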

How the results depend on the processing

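With AP_OCA replicate 2 apart, 266 genes passed, against 156 with a pseudocount of 0.1, 0 without a filter, 14 without the trend, 113 on the deposited log2 values, 1675 with quality weights, 121 with the length and GC trend removed and 559 with the replicate block. The count over the 25 genes went from 1 to 6 with quality weights and to 0 with the pseudocount of 0.1, no filter, no trend, the deposited log2 values and the length and GC trend removed, which also took the median from 0.24 to 0.13. The count over other pathway genes went from 1 to 2 with a pseudocount of 5 or the replicate block, to 12 with quality weights and to 0 with no filter or no trend. With all 8 libraries, quality weights gave 1052 genes, 3 of the 25 and 8 other pathway genes, where the other settings with all 8 gave 0. Leaving out 1 library at a time gave, in the 7 libraries, 7 to 973 genes, 0 to 1 of the 25, 0 to 4 other genes and medians of 0.071 to 0.23. From all 8 it gave 0 to 266 genes, 0 to 1 of the 25, 0 to 1 other genes and medians of 0.0038 to 0.24, the highest without AP_OCA replicate 2. Signs turned in the 7 libraries with the length and GC trend removed for Hadha (0.22), Acadl (-0.10), Etfa (-0.24), Etfdh (-0.019), Eci1 (-0.078) and Ppard (0.056), with quality weights for Hadha (0.030) and Acads (0.018) and with the replicate block for Hadha (0.054), Acaa2 (0.042) and Ehhadh (0.10). With all 8 they turned for Echs1 (-0.10), Etfa (-0.42) and Angptl4 (0.15) with that trend removed, for Cpt1a (0.20) likewise, for Angptl4 (0.019) and Pdha1 (0.0020) with a pseudocount of 5 and for Pdk4 (0.49), Cpt1a (0.17), Etfdh (0.092) and Pdha1 (0.40) with quality weights. Without 1 library, log2 fold changes crossed 0 from all 8 for Angptl4 (-0.52 to 0.15), Pdk4 (-0.68 to 0.29), Cpt1a (-0.21 to 0.12), Hadha (-0.0088 to 0.15), Etfdh (-0.29 to 0.12) and Pdha1 (-0.23 to 0.29), and in the 7 for Hadha (-0.063 to 0.054), Cpt1a (-0.00049 to 0.22), Acaa2 (-0.19 to 0.042), Acads (-0.32 to 0.030), Etfdh (-0.041 to 0.26), Eci1 (-0.028 to 0.32) and Ehhadh (-0.21 to 0.10). The cause was not tested. Same-numbered libraries correlated between -0.17 and 0.12 in their deviations from the group means, so the numbers were not taken as pairs, and in the 7 libraries the block leaves AP replicate 2 without a partner. Total reads are unknown, which limits what can be said of genes near 0.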

Other observations

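Some other lipid genes in AP_OCA replicate 2, chosen after their values were seen, lay far outside the other 7 libraries. Ucp2, the mitochondrial uncoupling protein common in immune cells, was at 241 CPM against 20.4 to 38.8, Pnpla2, the adipose triglyceride lipase, at 109 against 22.2 to 40.4, and Scp2, a peroxisomal thiolase and sterol carrier, at 47.3 against 7.45 to 12.9. In the same library Fgf21 was at 1.18 CPM against 20.4 to 54.1 and Vldlr, a lipoprotein receptor, at 1.49 against 12.6 to 30.5. These are values of 1 library, with no test.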
